A study of Mus musculus with 6 samples.

Results

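The genes of the anaphase-promoting complex (APC/C) and its regulators described here were measured in full-grown mouse oocytes labelled wild type or knockout, in a series on the deadenylase gene Pan2. They are the 10 of 55291 rows of the count table whose symbols are Anapc1, Anapc2, Anapc4, Anapc5, Anapc7, Anapc10, Cdc20, Fzr1, Fbxo5 and Fbxo43. They were selected by symbol, and all 10 had enough counts to be tested. The APC/C is the ubiquitin ligase that marks cyclin B and securin for destruction, and so lets chromosomes separate and the cell leave M phase. It works through a coactivator, CDC20 or CDH1 (the product of Fzr1), and is held back by the inhibitors EMI1 (Fbxo5) and EMI2 (Fbxo43). In mouse oocytes CDH1 helps to keep prophase arrest by limiting cyclin B1, CDC20 drives anaphase, and EMI2 maintains the arrest of the egg at metaphase II.

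The libraries came from full-grown oocytes labelled wild type (WT) or knockout (KO), prepared by Smart-seq2, in which oligo(dT) primes cDNA from poly(A) RNA before amplification. PAN2 is a deadenylase that trims poly(A) tails together with its partner PAN3, and the series title concerns tail length and RNA decay in early mouse development. The titles name full-grown oocytes, although the design text of the series describes zygotes and 2-cell embryos after maternal loss of Pan2. The sources used here do not give strain, age, the deleted exons, any Cre driver or the oocytes and females behind a library, so p-values measure the spread between libraries, which may be technical.

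Of 6 labelled samples, 4 libraries were compared: WT 1 with 23485093 counts, and KO 1, KO 2 and KO 3 with 12038990 to 26770521. Below, 3 KO values in a row stand in the order KO 1, KO 2, KO 3. WT 3 was not analysed here. The column of WT 2 (3785574 counts) did not follow the gene models and was left out: over 16690 genes its log2 CPM correlated with the other libraries at -0.07 to -0.05, while those correlated with one another at 0.956 to 0.991. Oocyte markers were abundant in the libraries compared, with 14 of 15 listed genes in the table summing to 35835 CPM (each count scaled by the library's TMM-adjusted size) in WT 1 and to 34175 to 37080 CPM in the KO libraries. Granulosa and cumulus markers (14 genes) summed to 63.9 CPM in WT 1 and 85.0 to 102 CPM in KO, with Tnfaip6 at 0. Stromal, theca and endothelial markers (10 genes) summed to 16.9 and to 29.0 to 29.6 CPM, with Col1a2, Col3a1 and Cdh5 at 0, and blood markers (8 genes) to 1.71 and to 1.87 to 5.09 CPM, with all 4 globin genes and Adgre1 at 0. The ribosomal RNA gene CT010467.1 took 24291 CPM of WT 1, against 14542, 5786 and 5655 CPM of the KO libraries. The part of these differences in the results below was not tested. Pan2 itself, the label check, was at 77.6 CPM in WT 1 and 44.6, 11.9 and 34.0 CPM across the KO libraries (log2 fold change -1.37, SE 0.53, edgeR adjusted p = 0.301), so its reads were lower but present in the libraries labelled KO. Pan2 passed in edgeR without KO 1 (log2 fold change -1.74) and with unfiltered counts (adjusted p = 0.0085), where many more genes passed than in the main fit. It did not pass in DESeq2, in limma-voom, with other scalings, or without KO 2 (-0.99) or KO 3 (-1.47). Its partner gene Pan3 was at 240.1 CPM in WT 1 and 195, 154 and 179 CPM in the KO libraries (-0.44, SE 0.30, edgeR adjusted p = 0.579). Leaving out KO 1, KO 2 and KO 3 in turn gave -0.52, -0.36 and -0.46 for Pan3, which passed only without KO 1.

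Because PAN2 acts on poly(A) tails, 3′ end windows of the coactivator mRNA Cdc20 and of both inhibitor mRNAs are shown first; Fzr1, the other coactivator, had neither motif searched in its last 100 bases. In oocytes the cytoplasmic polyadenylation element (CPE), searched here as TTTTAT or TTTTAAT on the transcript strand, recruits CPEB and works with the polyadenylation hexamer, searched as AATAAA or ATTAAA. In these windows from GENCODE M21 transcripts (mm10, minus strand in each case, written 5′ to 3′ as the transcript reads), capitals mark either motif where the window holds all of it. A further ATTAAA of Fbxo43 is cut by the start of its window and left in lower case. The AATAAA hexamers of Fbxo5 end 44 and 11 bases before the transcript end, outside its window. The Cdc20 window lies at chr4:118432911-118432940, that of Fbxo5 at chr10:5799226-5799255 and that of Fbxo43 at chr15:36150068-36150097.
Cdc20: TTTTATTTTATtttttctAATAAAgttcgt
Fbxo5: aatgtgagttttTTTTATatctgtgaatac
Fbxo43: ttaaaactaataATTAAAtttaaaatttac

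The 3′ UTR of Cdc20 was only 62 bases long and held 2 overlapping TTTTAT motifs just before its hexamer. Among 20027 protein-coding genes with a 3′ UTR of at least that length, 12.0% had a CPE in the last 62 bases. Fbxo5 had 1 CPE in its last 100 bases and was the only member to have one among the 9 with a 3′ UTR of 100 bases or more. In 19352 protein-coding genes the share was 17.9%. Fbxo43 had none in that window but 6 in its whole 3′ UTR of 1584 bases, and Anapc10 had 5 in 3897 bases. Anapc4 had 3, Anapc1, Fbxo5 and Cdc20 had 2 each, and Anapc5 and Anapc7 had 1 each. Anapc2 and Fzr1 had none in 452 and 1287 bases. Counts over whole 3′ UTRs were not set against those of all genes, and longer 3′ UTRs give more room for a match. A hexamer was present in the last 100 bases of 6 of the 9 members, against 78.6% of genes, and was not seen there in Anapc7, Anapc10 and Fzr1. A match is a description of the annotated end only, since counts per gene do not show which 3′ end the oocyte used.

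None of the 10 genes passed the test for a change in KO oocytes. With edgeR's quasi-likelihood test and Benjamini-Hochberg adjustment over all genes, 0 of 10 members passed an adjusted p of 0.05, where 344 of 17799 genes, or 1.93%, did (1.32% higher in KO and 0.612% lower). At an unadjusted p under 0.05 the members also numbered 0, against 13.3% of all genes, and DESeq2 and limma-voom each called 0 of them, against 4.58% and 1.29% of genes. The log2 fold changes of the members ran from -0.52 to 0.22, 6 above 0 and 4 below, with a median of 0.09 beside 0.02 over all genes tested. Their 95% intervals reached from a fold of 0.441 for Anapc1 to one of 1.90 for Fbxo5. The single WT library had to be taken as varying as the KO libraries do. In counts simulated for this design, 6 of 100 genes with a 2-fold change were called. Those genes were drawn from across the table and not matched to the members, so recovery for the members themselves was not measured. A count of 0 of 10 thus does not show that the members are unchanged. CPM are scaled to library size, so neither the number of oocytes nor the RNA per oocyte can be read from them. WT 1 lay above all KO libraries for 4 members, Anapc1, Anapc2, Anapc7 and Fzr1, and below them for 1, Anapc4. The same positions were taken by 29.2% and 29.1% of all genes tested.

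**Figure D1:**
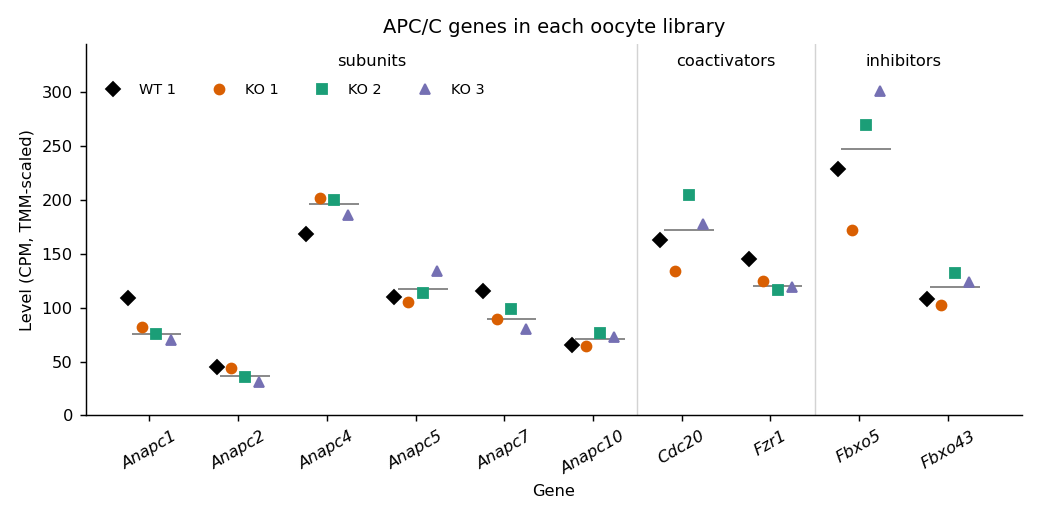
Level of each gene (CPM, TMM-scaled, linear axis from 0) in WT 1, KO 1, KO 2 and KO 3, with a grey line at the KO mean. WT 1 stands above the KO points for Anapc1, Anapc2, Anapc7 and Fzr1 and below them for Anapc4, and Fbxo5 has the widest KO spread, from 173 to 301 CPM.

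The scaffold of the complex was represented by Anapc1, Anapc4 and Anapc5, whose products form the platform that holds the other subunits. Anapc1 (ENSMUSG00000014355.10, chromosome 2, 128610104 to 128687391 in mm10, minus strand) had 109 CPM in WT 1 and 82.6, 76.1 and 69.6 CPM in the KO libraries. These lay close together (76.1 ± 6.47 CPM, SD, n = 3) and all lay below WT 1. Its log2 fold change was the lowest of the members at -0.52 (SE 0.30), which did not pass (edgeR adjusted p = 0.505). Without KO 1 it did pass, at -0.57 (edgeR adjusted p = 0.0128), in a fit in which 28.1% of 17498 genes passed (12.7% lower in KO). Without KO 2 or KO 3 it did not, and 2.43% and 2.89% of genes passed. Anapc4 (ENSMUSG00000029176.13, chromosome 5, 52834012 to 52867797, plus strand) went the other way, with 168 CPM in WT 1 and 202, 200.5 and 186 CPM in the KO libraries. WT 1 was thus below every KO library, but the log2 fold change of 0.22 (SE 0.30) did not pass (edgeR adjusted p = 0.805). Anapc5 (ENSMUSG00000029472.13, chromosome 5, 122787459 to 122821339, minus strand) stood at 109.7 CPM in WT 1 and at 105, 113 and 134 CPM in the KO libraries, on both sides of WT 1.

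The catalytic and substrate-binding side of the complex was represented by Anapc2, Anapc7 and Anapc10. Anapc2 (ENSMUSG00000026965.12, chromosome 2, 25272478 to 25285915, plus strand) encodes the cullin subunit, which positions the RING subunit ANAPC11 and its E2 enzyme. It was the least abundant member before correction for length, at 45.0 CPM in WT 1 and 43.7, 35.5 and 31.2 CPM in the KO libraries. KO 1 came close to WT 1 from below, and the fitted log2 change of -0.29 (SE 0.34) did not pass (edgeR adjusted p = 0.765). Anapc7 (ENSMUSG00000029466.11, chromosome 5, 122421693 to 122444912, plus strand) encodes a tetratricopeptide-repeat subunit of the arm that docks coactivators. It had 115 CPM in WT 1 and 89.7, 98.6 and 80.4 CPM in the KO libraries, all lower than WT 1. The fitted log2 fold change of -0.36 (SE 0.30) did not pass (edgeR adjusted p = 0.667). Anapc10 (ENSMUSG00000036977.8, chromosome 8, 79711820 to 79779059, plus strand), whose product joins the coactivator in binding the degrons of substrates, stood at 65.7 CPM in WT 1 and at 64.4, 76.4 and 72.9 CPM in the KO libraries. WT 1 lay between KO 1 and KO 3. The processed pseudogene Gm15530 matches Anapc10 at 97.3% over 553 bases, but held 0 to 8 counts a library where Anapc10 held 793 to 1950.

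Among the coactivators, Cdc20 varied between KO libraries and Fzr1 did so least of all the members. Cdc20 (ENSMUSG00000006398.15, chromosome 4, 118432901 to 118437352, minus strand) had 163 CPM in WT 1 and 134, 205 and 178 CPM in the KO libraries, a mean of 172 ± 35.9 CPM (SD, n = 3). WT 1 lay inside the KO range, and the log2 fold change was 0.08 (95% interval -0.67 to 0.83, edgeR adjusted p = 0.945). Of its exon bases 53, or 2.84%, overlap Elovl1 on the other strand. Whether strand was used to count is not stated, so reads from those bases cannot be told apart. Fzr1 (ENSMUSG00000020235.16, chromosome 10, 81366222 to 81378516, minus strand) had 145 CPM in WT 1 and 125, 116 and 119 CPM in the KO libraries (120.1 ± 4.15 CPM, SD, n = 3), with 4 exon bases shared with Mfsd12. All KO libraries lay below WT 1. The difference was larger than the spread between KO libraries, but its log2 fold change of -0.28 (95% interval -0.93 to 0.38) missed the threshold (edgeR adjusted p = 0.742).

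The inhibitor genes had the same order of libraries at the bottom, with KO 1 lowest and WT 1 next. Fbxo5 (ENSMUSG00000019773.7, chromosome 10, 5799160 to 5805600, minus strand) encodes EMI1, an F-box protein that blocks substrate binding by the APC/C and, in mouse oocytes, lets cyclin B1 build up for entry into meiosis I. It was the most abundant member, at 229 CPM in WT 1 and 173, 269.5 and 301 CPM in the KO libraries. The KO libraries spread on both sides of WT 1 (248 ± 67.1 CPM, SD, n = 3), and the log2 fold change was 0.11 (95% interval -0.70 to 0.93, edgeR adjusted p = 0.927). Fbxo43 (ENSMUSG00000048230.6, chromosome 15, 36150060 to 36164884, minus strand), the EMI2 gene, had 108 CPM in WT 1 and 103, 133 and 124 CPM in the KO libraries. WT 1 again lay just above KO 1 and below the others, with a log2 fold change of 0.15 (95% interval -0.55 to 0.85, edgeR adjusted p = 0.877). A stretch of 150 bases, the shortest length searched, matches Olfr338 at 95.3%. The counts of Olfr338 were not examined.

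**Figure D2:**
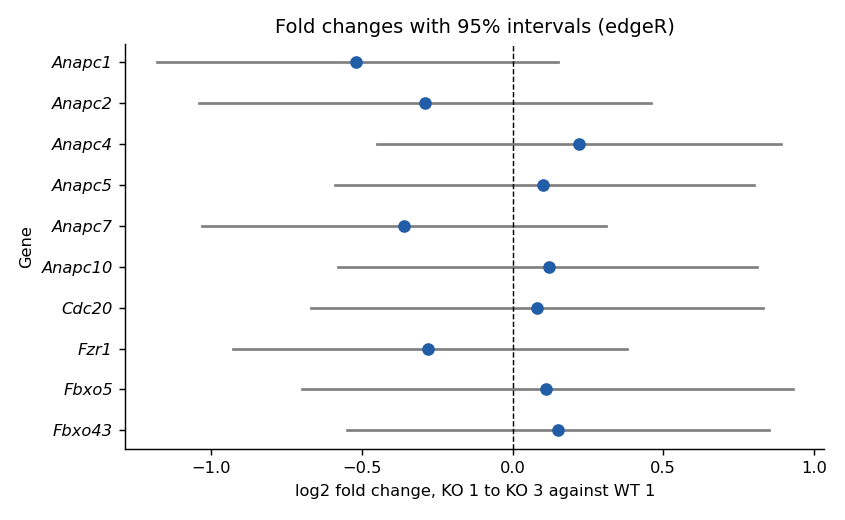
log2 fold change of each gene, KO 1 to KO 3 against WT 1, from edgeR (points) with its 95% interval (lines). Every interval holds 0, and the points run from -0.52 for Anapc1 to 0.22 for Anapc4.

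The spread between KO libraries was not even over the members. It was lowest for Fzr1 (coefficient of variation 3.45%) and Anapc4 (4.47%) and highest for Cdc20 (20.8%) and Fbxo5 (27.1%). The median was 11.4% for the members, beside 17.7% for the 3930 genes tested that lie in the same CPM range. Counting alone gives 1.11% to 4.31% for counts of this size, from 8060 for Fbxo5 in KO 3 down to 538 for Anapc2 in KO 1. Summed over the 6 subunit genes, the level was 613 CPM in WT 1 and 588, 600.4 and 575 CPM in the KO libraries. Summed over the coactivator and inhibitor genes, it was 645 CPM in WT 1 and 534, 724 and 723 CPM. KO 1 was thus the lowest library for the summed regulators, while the summed subunits differed little between KO libraries. Gene by gene, KO 1 was the lowest of the KO libraries for Anapc5, Anapc10, Cdc20, Fbxo5 and Fbxo43, 5 of 10 members, against 40.5% of all genes tested. It was the highest of them for Anapc1, Anapc2, Anapc4 and Fzr1, 4 of 10, against 40.9%.

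Levels can be set between genes only per length, and were divided by the summed exon length of each gene. On this scale (CPM per kb) Fbxo5 was the highest in every library, at 114 in WT 1 and 86.2, 135 and 150.5 in the KO libraries. Cdc20 came second in every library, at 87.1 in WT 1 and 71.7 to 109.7 in KO, and the KO ranges of the pair overlapped. Both stood well apart from the rest, with Fbxo5 above 96.8% and Cdc20 above 95.7% of the genes tested. Anapc4, Fbxo43 and Fzr1 followed at KO means of 32.2 ± 1.44, 29.7 ± 3.80 and 26.8 ± 0.924 CPM per kb (SD, n = 3), and neighbours in this order overlapped. Anapc5 and Anapc7 came next at 19.3 ± 2.46 and 17.5 ± 1.78, overlapping each other, and Anapc7 also overlapped Anapc10 at 14.7 ± 1.27. Anapc2 at 10.7 ± 1.84 and Anapc1 at 4.55 ± 0.387 were lowest, each without overlap with its neighbours in the order.

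The length used moved this order in the middle. The summed exon length of Anapc1 is 16714 bases against 8942 for its longest annotated transcript, and with transcript lengths Anapc1 came to 8.51 ± 0.724 CPM per kb and stayed last. Fbxo43, whose exon and transcript lengths are both 4035 bases, went from rank 4 to rank 6, behind Fzr1 at 39.3 ± 1.36 and Anapc5 at 34.9 ± 4.45 CPM per kb. Fbxo5 and Cdc20 stayed at the top.

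**Figure D3:**
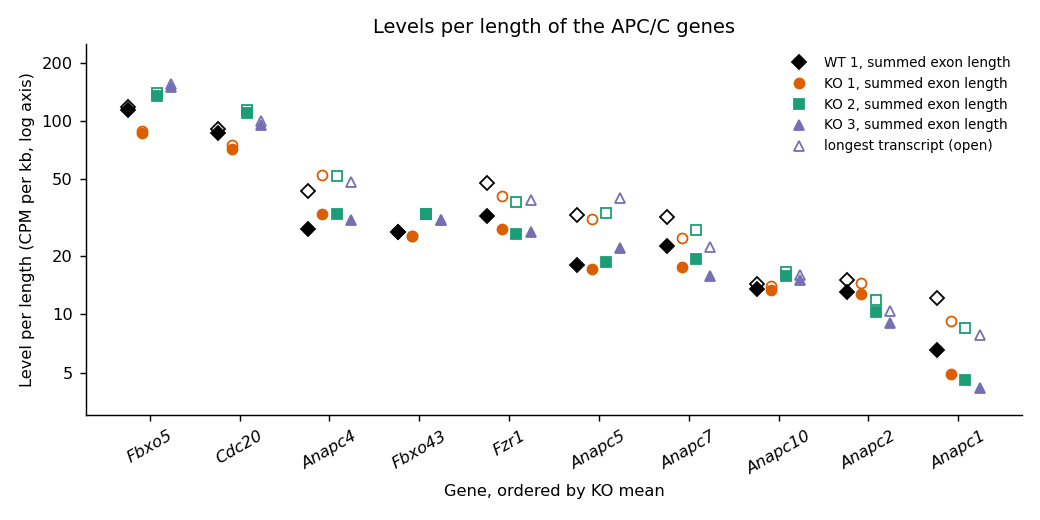
Level per length (CPM per kb, log axis) of each gene in WT 1, KO 1, KO 2 and KO 3, divided by the summed exon length (filled) or by the longest annotated transcript (open). Fbxo5 and Cdc20 are the highest on both scales and Anapc1 the lowest, with KO means of 124, 92.3 and 4.55 CPM per kb on summed exon length.

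Ratios between partners in WT 1 lay within the KO range in each case. Per kb of exon, Cdc20 exceeded Fzr1 by 2.69 times in WT 1 and by 2.58, 4.23 and 3.59 times in the KO libraries. WT 1 and KO 1 lay together and KO 2 and KO 3 above them. Fbxo5 exceeded Fbxo43 by 4.28 times in WT 1 and by 3.38, 4.09 and 4.90 times in the KO libraries, on both sides of WT 1. The summed inhibitors stood at 1.18 times the summed coactivators in WT 1 and at 1.12, 1.23 and 1.49 times in the KO libraries. With transcript lengths these last ratios were 1.05 in WT 1 and 0.991, 1.13 and 1.34 in KO. With 1 WT library none of these ratios was tested.

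The rest of the pathway was read from 5 lists holding 56 genes, all of them tested: other APC/C subunits, its E2 enzymes and deubiquitinases, checkpoint genes that act on CDC20, substrates, and kinases, phosphatases and the SCF receptor Btrc that act on its inhibitors and coactivators. None of the 56 passed in edgeR, against the 1.93% of all genes that passed. At an unadjusted p under 0.05 there were 2, Nek2 and Ppp3ca, limma-voom called 0 and DESeq2 called Nek2. The log2 fold changes had a median of 0.22, with 41 of 56 (73.2%) above 0. The median was 0.02 over all genes tested, with 51.3% above 0, and 0.06 over the 3930 genes in the members' CPM range, with 55.6% above 0. The 56 had a median of 0.3 without KO 1 and of 0.17 without KO 2 or without KO 3. All of these values share WT 1, so the genes do not count as replicates of the comparison. The lists were also chosen with earlier results of these data known, and the shift was not tested. A fit without KO 1 holds 1 WT and 2 KO libraries, so its spread rests on KO 2 and KO 3, the most alike pair. Without KO 1, 21 of the 56 (37.5%) passed, 18 higher and 3 lower. In that fit 28.1% of all genes passed, 15.4% higher and 12.7% lower, and 41.4% of the genes in the members' CPM range did.

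Of the 8 other subunit genes, 5 had a log2 fold change above 0 and 0 passed, with a median of 0.09. Anapc13, a small subunit, was nearest to passing, at 24.2 CPM in WT 1 and 20.5, 10.9 and 10.5 CPM in the KO libraries (edgeR adjusted p = 0.476). Cep63 shares 10.1% of its exon bases. Cdc16, a tetratricopeptide-repeat subunit, was at 22.4 CPM in WT 1 and 18.9, 30.4 and 38.2 CPM in the KO libraries (adjusted p = 0.751), on both sides of WT 1. Leaving out KO 1, KO 2 and KO 3 in turn gave log2 fold changes of -1.17, -0.66 and -0.64 for Anapc13 and 0.62, 0.36 and 0.15 for Cdc16. Both passed only without KO 1.

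Of the 7 E2 and deubiquitinase genes, Ube2s, whose product extends ubiquitin chains on APC/C substrates, had 53.2 CPM in WT 1 and 114, 84.0 and 67.4 CPM in the KO libraries. All KO libraries lay above WT 1, by a fitted log2 value of 0.73 (SE 0.38, edgeR adjusted p = 0.443). Without KO 1, KO 2 and KO 3 in turn this value was 0.51, 0.76 and 0.89, and Ube2s passed only without KO 1. Rpl28 shares 183 (3.56%) of the exon bases of Ube2s. The part of reads from those bases in the Ube2s values was not tested. Usp44, a deubiquitinase of the checkpoint, was rare, with 6 counts in WT 1 and 6 to 20 in the KO libraries (adjusted p = 0.625). The median over this list was 0.34 on the log2 scale.

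Of the 8 checkpoint genes, Bub3 and Mad2l1, which encode parts of the mitotic checkpoint complex that holds CDC20, had the lowest p-values. Bub3 had 146 CPM in WT 1 and 184, 274 and 252 CPM in the KO libraries (log2 fold change 0.70, SE 0.35, edgeR adjusted p = 0.425). Mad2l1 had 254 CPM in WT 1 and 326, 480.0 and 425 CPM in the KO libraries (0.69, SE 0.34, adjusted p = 0.427). WT 1 was below every KO library for both genes. Leaving out KO 1, KO 2 and KO 3 in turn gave log2 fold changes of 0.86, 0.58 and 0.65 for Bub3 and 0.84, 0.56 and 0.67 for Mad2l1. Both passed only without KO 1. In the list 5 genes had a log2 fold change above 0 and 3 below, with a median of 0.28. The 3 below were Bub1b (-0.31), Mad2l1bp (-0.53) and Trip13 (-0.40), each with WT 1 above every KO library.

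Of the 18 substrate genes, Nek2, a centrosomal kinase gene, had the highest log2 fold change at 2.08 (SE 0.68, edgeR adjusted p = 0.202). It had 1.67 CPM in WT 1, from 40 counts, and 3.33, 9.74 and 8.08 CPM in the KO libraries, all above WT 1. Without KO 1, KO 2 and KO 3 in turn the log2 fold change was 2.42, 1.78 and 1.99. Nek2 passed in DESeq2 (adjusted p = 0.0426), in edgeR with unfiltered counts (0.0218) and in edgeR when KO 1 was left out. It did not pass in limma-voom, with other scalings, or without KO 2 or KO 3. The antisense gene Gm38037 shares 6.6% of its exon bases. Securin, encoded by Pttg1, was abundant, at 4826 CPM in WT 1 and 3384, 3628 and 3098 CPM in the KO libraries. Every KO library was lower than WT 1, and the fitted log2 fold change was -0.52 (SE 0.30, adjusted p = 0.505). Pttg1 passed only without KO 1, at a log2 fold change of -0.52, against -0.58 without KO 2 and -0.46 without KO 3. The list had a median of 0.25.

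Of the 17 kinase, phosphatase and receptor genes, Ppp3ca, a catalytic subunit gene of calcineurin, had 10.1 CPM in WT 1 and 22.0, 19.8 and 17.5 CPM in the KO libraries. They did not overlap WT 1, and the log2 fold change of 0.97 (SE 0.39) did not pass (edgeR adjusted p = 0.318). Ppp3ca passed only without KO 1, at a log2 fold change of 0.89, against 0.96 without KO 2 and 1.04 without KO 3. Map2k1, the gene of a MAP kinase kinase that acts downstream of MOS, had 149 CPM in WT 1 and 142, 271 and 254 CPM in the KO libraries (adjusted p = 0.587). WT 1 and KO 1 lay together, below KO 2 and KO 3. Map2k1 passed only without KO 1, at a log2 fold change of 0.83, against 0.41 without KO 2 and 0.48 without KO 3. The list had a median of 0.22.

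**Figure D4:**
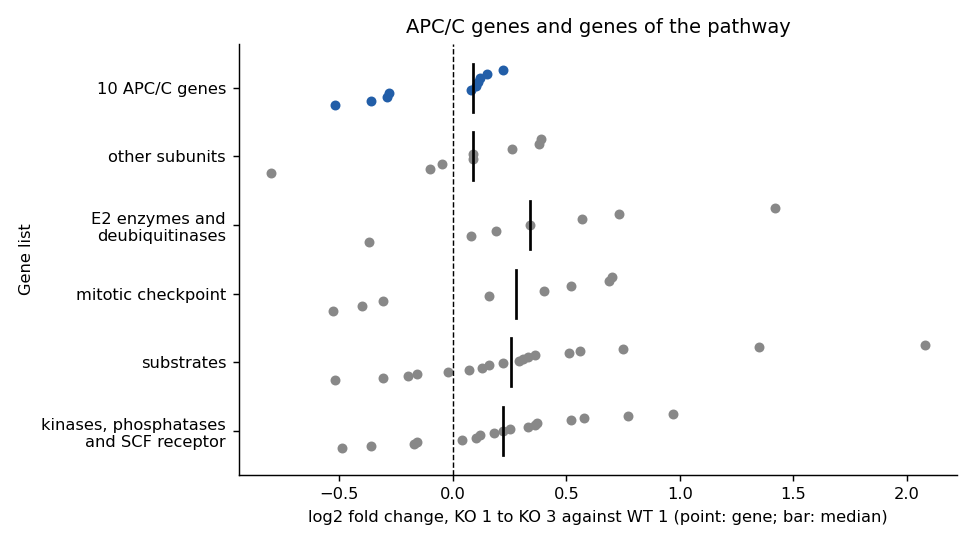
log2 fold change, KO 1 to KO 3 against WT 1, of the 10 APC/C genes (blue) and of the genes of 5 pathway lists (grey), 1 point a gene and a black bar at each list's median. Medians run from 0.09 to 0.34, and Nek2, the rightmost point at 2.08, did not pass the edgeR test.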

How the data were processed

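The authors deposited raw counts per gene for 5 libraries, per the file headers, with exon coordinates and summed exon length. Trim Galore 0.6.7, STAR 2.7.10a, featureCounts 2.0.2, DESeq2 and mm10 appear, per the submitters' processing notes. The sources used here give neither the annotation nor the strand setting. Poly(A) priming, per the labels' protocols, can let tail length change capture as well as abundance. Every column matched a title by name. All 10 members had the coordinates of GENCODE M21, which gave identifiers, transcripts and 3′ ends; the transcript with the best APPRIS rank was used.

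WT 1 was compared with KO 1 to KO 3 by the robust quasi-likelihood test of edgeR 4.0.16 under R 4.3.3, after filterByExpr and TMM scaling. Adjustment was Benjamini-Hochberg's over 17799 genes, with a threshold of 0.05. An SE is the log2 fold change over the square root of F. CPM used TMM effective library sizes; against raw totals, 1 count was worth 0.0374 to 0.0831 CPM. No pair agreed within sampling noise (chi-square over degrees of freedom 19.4 to 136). KO 2 and KO 3 were the closest pair at 19.4, and KO 1 stood at 45.7 with WT 1, 74.8 with KO 2 and 87.0 with KO 3. By correlation of log2 CPM, KO 1 was instead least like WT 1 (0.966). Copies were sought with blastn 2.17.0 at 95% identity over 150 bases. DESeq2 1.42.0, limma-voom 3.58.1, other scalings, no filter, WT 2 added and each KO library left out were alternatives. The steps were tested on counts simulated for these 4 libraries. There edgeR called 76 of 100 genes with a 4-fold change, 6 of 100 with a 2-fold change and 0.125% of unchanged genes. Text names all members, Pan2, and per list those that passed or otherwise the 2 lowest p. Members and lists were chosen with earlier results of these data known.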

Additional observations from a re-analysis of the deposited data

Results flagged for a closer look

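The WT 2 column, which no comparison used, held counts at 6 of the members above the 3 counts that would be taken as a floor. Anapc1 had 1047 counts there and Fbxo43 had 606, which come to 277 and 160.1 CPM of that library's own total. Anapc5 had 89, Anapc4 had 11, Fzr1 had 8 and Fbxo5 had 4 counts, and Anapc2, Anapc7, Anapc10 and Cdc20 had 0. As that column did not follow the other libraries, its values may belong to other genes.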

How the results depend on the processing

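Over the 8 alternatives without WT 2, 76 of 80 member fold changes kept their direction and their side of the threshold, 1 passed (Anapc1 without KO 1) and 3 near 0 turned: Anapc5 (-0.0032) and Fbxo5 (-0.05) without KO 3, and Cdc20 (-0.06) without KO 2; without KO 1 these reached 0.18, 0.32 and 0.24. Leaving out a KO library gave 0 to 1 members, 0 to 21 pathway genes and 425 to 4923 genes over all; 4923 was without KO 1. DESeq2 called 688 genes, limma-voom 229 and no filter 868, with 1 pathway gene (Nek2) in DESeq2 and 1 without a filter. With both WT libraries edgeR called 0 genes (1050 at an unadjusted p under 0.05), and 0 with the replicate block (1 unadjusted). Whether same-numbered libraries pair could not be checked, since the deviation of either WT library is set by the WT 2 column. With both WT libraries the fold changes turned, without and with the replicate block, for Anapc2 (0.71, 4.2), Anapc7 (0.64, 4.82), Fzr1 (0.71, 2.87), Fbxo43 (-0.0053, -0.04), Pan3 (0.46, 1.44), Anapc13 (0.20, 3.22), Cdc16 (-1.08, -0.99) and Pttg1 (0.48, 6.04). In the WT 2 column Anapc2, Anapc7 and Anapc13 had 0 counts, Pttg1 had 2, Fzr1 8, Pan3 77, Cdc16 461 and Fbxo43 606. The part of these counts in the turned fold changes was not tested separately. Leaving out WT 1 was not run, since no other WT library was compared. The members had 538 counts or more in each library compared. Whether the lower depth of KO 1 (12038990 counts) bears on the fits was not tested.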
